A study of Hydra viridissima with 4 samples.

Results

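The open chromatin regions described here lie along scaffold 1, the scaffold of the green hydra *Hydra viridissima* on which peaks reached farthest, to 41.4 Mb against 26.3 Mb on scaffold 2. Peaks of the 4 deposited ATAC-seq lists that shared at least 1 bp were merged into union regions, and those on scaffold 1 were kept when they lay at least 250 kb from its start and at least 250 kb before its highest peak end, from 250001 to 41185033. This interior of 40.9 Mb held 13589 of the 117973 union regions (11.5%), and 15 regions of the scaffold lay in the margins. The first and last regions inside were at 329321 to 329429 and 41145668 to 41145759, and the nearest outside were at 207634 to 207838 and 41238428 to 41238552. The animals were Hydra viridissima clone 2, either aposymbiotic, that is without algae, or green/symbiotic, with 2 libraries per condition. Each library pooled 50 whole animals without buds or gonads, so all libraries share 1 clone and mix all cell types. More cells of a type and a more open site in each cell cannot be told apart in such libraries. The labels call the replicates biological, without saying whether they came from separate cultures. All animals were fed brine shrimp, last 2 days before, and were kept in medium with antibiotics.

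ATAC-seq uses the transposase Tn5, which inserts adapters where DNA is not wrapped in nucleosomes. Open sites in animal genomes are typically promoters and distal regulatory elements. They tend to be unevenly spread, dense where genes are packed and sparse in repeat-rich sequence. Green hydra harbours algae in its gut-lining epithelial cells, and animals can be kept without them. Gene annotation and sequence were not used here, so regions are described by position, spacing, strength and the libraries that called them.

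The 4 lists differed in length and depth, which touches every count below. The aposymbiotic replicates, called Apo R1 and Apo R2 below, had 21481 and 78594 peaks. The symbiotic ones, Sym R1 and Sym R2, had 31072 and 87128. The genome-wide background pileup, solved from the fold enrichment and the p-value of each peak, was between 6.80 and 16.7 tags. Tags are the units that the peak caller piles up.

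Scaffold 1 had the lowest density of open regions among the 13 large scaffolds. Its interior held 332 union regions per Mb, against 463 per Mb over the interiors of scaffolds 2 to 13. Each library alone also placed it lowest of the 13. In Apo R1 there were 59.6 peaks per Mb on scaffold 1 and 84.6 per Mb on scaffolds 2 to 13. In Sym R1 the densities were 84.2 and 122 peaks per Mb. Replicate 2 had 221 and 310 peaks per Mb in aposymbiotic animals and 245 and 342 in symbiotic animals. The ratio of the densities was 0.705 ± 0.0130 (SD, n = 4 libraries). Both densities of a ratio come from the same list, so list length cancels in it. Scaffold 1 was lower in 4 of 4 libraries (mean log2 ratio -0.50, two-sided exact sign-flip permutation test p = 0.125, the smallest that 4 libraries allow). The next lowest scaffold lay above it in every list, at 64.4, 90.5, 232 and 256 peaks per Mb in Apo R1, Sym R1, Apo R2 and Sym R2.

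**Figure D1:**
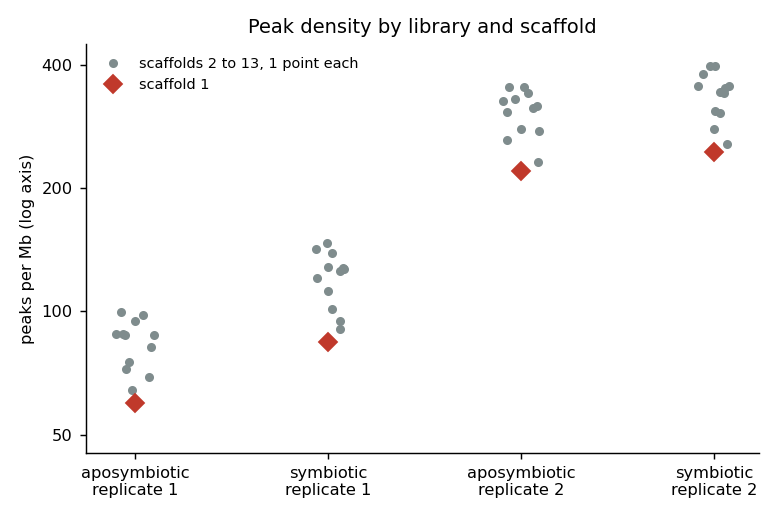
Peaks per Mb (log axis) in each of the 4 libraries, for scaffold 1 (red diamonds) and for each of scaffolds 2 to 13 (grey points). Scaffold 1 lies lowest in each library, at 59.6, 84.2, 221 and 245 peaks per Mb from left to right.

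Density varied widely along the scaffold. The 40 full windows of 1 Mb held between 3 and 554 regions, with a median of 361 and a mean of 334 ± 181 (SD over windows). The 211 windows of scaffolds 2 to 13 held between 4 and 682 regions, with a median of 522. On scaffold 1, 22 windows lay under 386.5 regions, the lower quartile of those other windows, 9 lay above their median and 0 above their upper quartile of 587. Of the other windows, 83 (39.3%) held more regions than the densest window of scaffold 1. Each of scaffolds 2 to 13 had a window of at least 602 regions. The ratio of variance to mean of the window counts was 98.3 on scaffold 1 and between 12.9 and 147 on the other scaffolds, of which scaffolds 4, 5 and 10 exceeded it. Wide variation along a scaffold was therefore not particular to scaffold 1. The windows are neighbours on shared sequence and were not treated as replicates, so these values are descriptions.

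**Figure D2:**
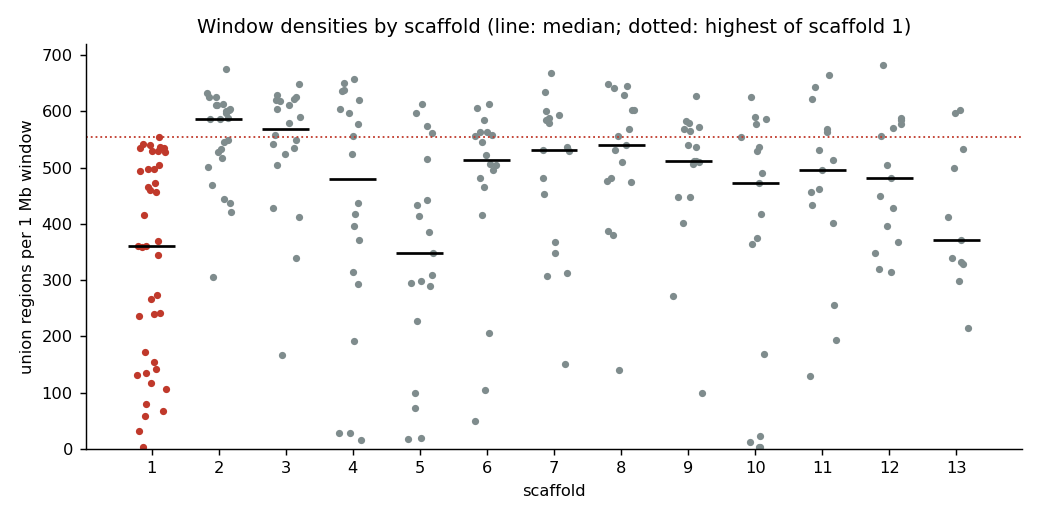
Union regions in each full 1 Mb window (points) of scaffolds 1 to 13, with the median of each scaffold (black line). The windows of scaffold 1 (red) spread from 3 to 554 regions, and the dotted line marks that highest value, which windows of each other scaffold exceed.

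The densest windows lay in both outer parts of the scaffold. Window 38, at 37250001 to 38250000, held 554 regions and window 35, at 34250001 to 35250000, held 542. Windows 6, 3 and 10, which start at 5250001, 2250001 and 9250001, held 541, 537 and 535. In window 38 the lists had 94 and 372 peaks in Apo R1 and Apo R2, and 120 and 391 in Sym R1 and Sym R2. The sparsest windows lay at the ends and near the middle. Window 40, at 39250001 to 40250000, held 3 regions, and window 1, at 250001 to 1250000, held 31. Windows 20, 25 and 23, which start at 19250001, 24250001 and 22250001, held 59, 68 and 79. Window counts ranked alike in all library pairs, with Spearman's rho from 0.931 to 0.972 over the 40 windows. These points share 1 genome and its mappable sequence, so the correlation is given as a description.

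Most sparse windows formed 1 long central run. Windows 17 to 30, at 16250001 to 30250000, were 14 neighbouring windows that all lay under 386.5 regions, and they held 2411 regions, or 172 per Mb. The run was delimited after the counts were seen, so it is described without a test. Its centre lay at 56.1% of the distance from the scaffold start to the highest peak end. No other scaffold had a run of more than 6 such windows, though the others had only 11 to 25 windows each. Their longest runs were 6 windows on scaffold 10, with 97.7 regions per window, and 4 windows each on scaffolds 4, 5 and 13. The stretch before the run, windows 2 to 16, held 462 regions per Mb, and windows 31 to 39 behind it held 441 per Mb. The 0.935 Mb behind the last full window held 240 regions, or 257 per Mb.

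All 4 libraries showed the same central trough. Apo R1 had 37.0 peaks per Mb inside the run and 71.4 outside it, and Sym R1 had 51.4 and 101. The values were 111 and 278 peaks per Mb in Apo R2, and 127 and 307 in Sym R2. The contrast was wider in the longer lists. Inside the run the replicate 2 list had 3.00 times as many peaks as the replicate 1 list in aposymbiotic animals and 2.47 times as many in symbiotic animals, against 3.90 and 3.03 times outside it. In the 53 windows of scaffolds 2 to 13 under the same limit these ratios were 3.56 and 2.74, close to the 3.68 and 2.80 of the remaining windows there. With the run left out, which was decided after the counts were seen, the mean log2 ratio of peak density, scaffold 1 over scaffolds 2 to 13, was -0.21. That ratio compares a scaffold without its sparse run with scaffolds that keep theirs. With windows under 386.5 regions left out of every scaffold it was -0.16. Both values leave out windows by their own counts, so they are descriptions without a test.

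**Figure D3:**
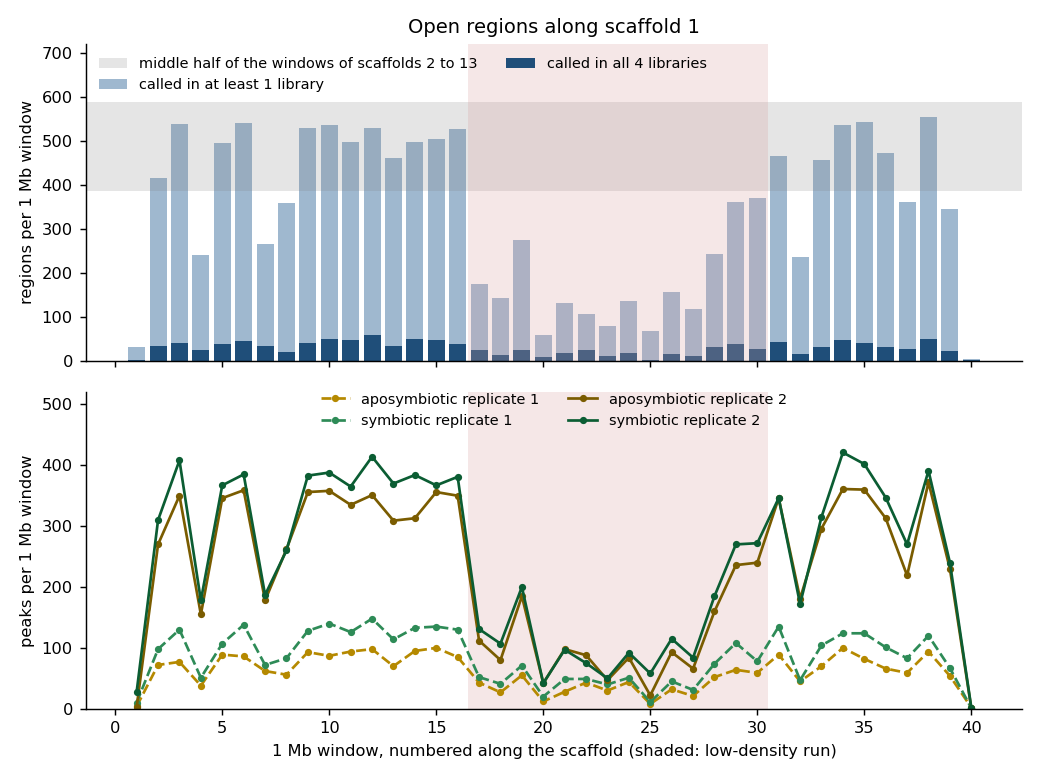
Counts in the 40 full windows of 1 Mb along scaffold 1. The upper panel shows regions called in at least 1 library (light bars) and in all 4 (dark bars), with the range from the lower to the upper quartile of the windows of scaffolds 2 to 13 in grey. The lower panel shows the peaks of each library. Windows 17 to 30 (shaded) hold 59 to 369 regions each, and the trough appears in the 4 lists.

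Regions on scaffold 1 sat in islands that were shorter and covered less sequence than elsewhere. An island was taken as a chain of regions with gaps of at most 10 kb. Scaffold 1 had 576 islands, with a median of 4 regions and a median length of 8.55 kb, and 170 of them were single regions. On scaffolds 2 to 13 the median island held 15 regions over 24.8 kb. Islands covered 53.1% of the interior of scaffold 1, against 72.0% on scaffolds 2 to 13, where single scaffolds ranged from 56.2% to 82.7%. Inside islands there were 626 regions per Mb on scaffold 1 and 643 on scaffolds 2 to 13, with a range of 613 to 652 over single scaffolds. At this limit of 10 kb, scaffold 1 thus lay outside that range for the covered share and within it for the inner density. The central run had 28.5% of its sequence in islands at 603 regions per Mb, below the range of single scaffolds for both measures, against 65.8% and 631 per Mb in the rest of the interior.

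The inner density depends on the limit that links regions. At 5 kb it was 794 regions per Mb on scaffold 1 and 775 on scaffolds 2 to 13, and 847 in the run. At 20 kb the values were 522, 581 and 441. Single scaffolds among 2 to 13 ranged from 760 to 782 at 5 kb and from 532 to 603 at 20 kb. Scaffold 1 thus lay above the range at 5 kb and below it at 20 kb. The covered share was lower on scaffold 1 at all 3 limits, at 41.8% against 59.7% for 5 kb and 63.6% against 79.7% for 20 kb. The island with the most regions spanned 540 kb at 34040248 to 34579946 and held 337 of them. The next held 309 regions at 35395797 to 35913603 and 288 at 9308271 to 9726868. Inside the run the largest island, at 28633733 to 29013553, held 212 regions over 380 kb. It was followed by 120 regions at 28173840 to 28356850 and 110 at 27945882 to 28100136, so the 3 largest lay near the right edge of the run. These islands were picked by size after the counts were seen.

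**Figure D4:**
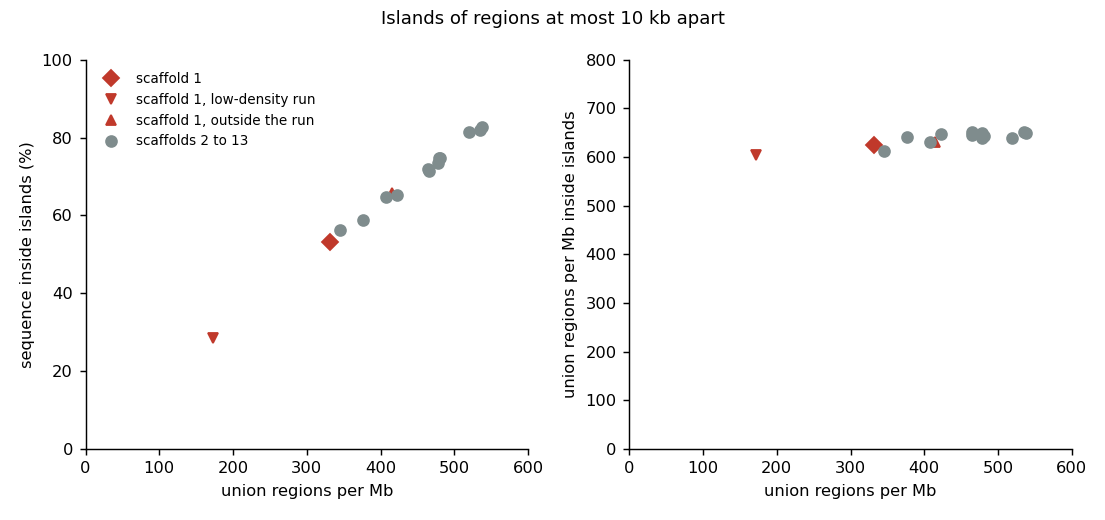
Left, share of the interior inside islands of regions at most 10 kb apart against the density of union regions. Right, density of regions inside those islands. The share follows the density, from 28.5% in the run of scaffold 1 to 82.7% on the scaffold with the highest share, while the inner density stays between 603 and 652 regions per Mb.

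Spacing between neighbours was close to that of other scaffolds at short range and included more long gaps. The median gap was 829 bp on scaffold 1 and 774 bp on scaffolds 2 to 13, where single scaffolds ranged from 751 to 819 bp. Gaps under 1 kb made up 55.1% of gaps on scaffold 1 and 57.1% on the others. Gaps over 10 kb made up 4.23% and 1.87%. Those between 10 and 100 kb took up 36.7% of all gap sequence on scaffold 1, against 20.1% on scaffolds 2 to 13, and 55.0% inside the central run. There were 27 gaps over 100 kb, or 6.60 per 10 Mb, against 83 gaps and 3.82 per 10 Mb on the other scaffolds together. Scaffolds 4, 5, 10 and 13 had higher rates than scaffold 1, at 7.40, 8.19, 7.44 and 7.89 per 10 Mb. Of the 27, 18 lay in the run.

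Windows of 100 kb gave the same picture on a finer scale. The median window held 34 regions on scaffold 1 and 54 on scaffolds 2 to 13. Empty windows were about as frequent on both, 24 of 409 (5.87%) against 136 of 2165 (6.28%). The richest was at 2550001 to 2650000, with 76 regions and 14, 22, 49 and 64 peaks in Apo R1, Sym R1, Apo R2 and Sym R2. It was followed by 8550001 to 8650000 and 8850001 to 8950000, with 75 regions each. On the other scaffolds 35 windows held more than 76, up to 85.

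The longest gap of scaffold 1 ran from 39018571 to 39708226, over 690 kb in which none of the 4 libraries had a peak. Scaffolds 6, 9 and 10 each had a longer one, up to 935 kb. The next gaps were 433 kb long at 31533194 to 31965903 and 386 kb at 6315199 to 6700871, both outside the central run. Another, of 278 kb at 40028549 to 40306421, lay behind the first. The last of the 5, 276 kb long at 16853083 to 17128790, lay inside the central run. Between the gaps at 39018571 and 40028549 stood the 3 regions of window 40. Only the last of them, at 40028301 to 40028548, was called in all 4 libraries. Its fold enrichment was 4.81 and 5.93 in Apo R1 and Apo R2 and 8.97 and 5.67 in Sym R1 and Sym R2, from 49, 104, 69 and 81 tags at the summit. These folds stood at or above the 92.4th percentile of each list. The others were called once each, at 39708227 to 39708319 in Apo R1 with a fold of 3.66 and at 39880641 to 39880733 in Sym R2 with a fold of 4.57.

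Regions of scaffold 1 had the usual size. Their median width was 166 bp, against 170 bp on scaffolds 2 to 13, and 115 to 263 bp spanned the quartiles. In the run it was 165 bp. Regions over 1 kb wide numbered 55 (0.405%), against 0.570% on the other scaffolds, and the widest spanned 2017 bp. In single lists the median peak was 161, 135, 146 and 161 bp wide in Apo R1, Sym R1, Apo R2 and Sym R2. The corresponding widths on scaffolds 2 to 13 were 158, 137, 149 and 165 bp, so the order of the scaffolds differed between libraries.

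Peaks of scaffold 1 ranked somewhat higher by fold enrichment than the pooled peaks of scaffolds 2 to 13. Fold enrichment is the authors' ratio of the summit pileup to the local background, and it was ranked within each list only. The median percentile was 54.2 on scaffold 1 and 49.3 on scaffolds 2 to 13 in Apo R1, and 52.2 and 49.5 in Sym R1. It was 54.0 and 48.7 in Apo R2, and 52.2 and 49.8 in Sym R2. The difference was 3.80 ± 1.51 percentile points (SD, n = 4), higher in 4 of 4 libraries (two-sided exact sign-flip permutation p = 0.125). Single scaffolds came close to scaffold 1. In Sym R1, scaffolds 5, 9, 10 and 13 had the same median of 52.2, and in Sym R2 scaffold 10 had 52.1. The highest median among scaffolds 2 to 13 was 52.4 in Apo R1 and 52.7 in Apo R2. The pooled difference was 1.91 at a -log10 q of at least 5 (exact p = 0.25). The local background moved with this result. It equalled the genome-wide background at 45.8%, 43.1%, 39.9% and 40.2% of the peaks of scaffold 1, and at 37.9%, 32.7%, 30.4% and 29.1% of those of scaffolds 2 to 13. Among those peaks alone, the mean difference was -1.01 points (exact sign-flip p = 1), and the libraries differed in sign. Median summit pileups were 29, 24, 44 and 40 tags on scaffold 1 and 29, 25, 45 and 42 tags on the others.

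Peaks inside the central run were fewer, and their median rank by fold was higher in each list than in the rest of the interior. Their median percentile was 54.2, 59.6, 58.8 and 52.8 in Apo R1, Sym R1, Apo R2 and Sym R2, against 52.1, 52.2, 52.0 and 52.1 outside the run. In Apo R1, windows 2 to 16 had the same median as the run, while in the other lists theirs was lower. Median summit pileups in the same order were 30, 25, 45 and 40 tags in the run and 29, 24, 44 and 40 outside it. The sparse windows of scaffolds 2 to 13 also ranked above the other windows there, at 51.5, 52.2, 54.0 and 53.5 against 49.2, 49.0, 48.7 and 49.0 in the same order of lists. Regions called in all 4 libraries made up 10.9% of the regions of the run and 8.28% of those outside it, against a background of 8.69% of all union regions. Over the whole interior they numbered 1187 (8.74%), a share near that background. In the sparse windows of scaffolds 2 to 13 the share was 8.95%, and in their other windows 8.71%. Peaks above the 90th percentile of fold made up 15.5% and 14.6% of the run's peaks in Apo R2 and Sym R2, and 9.89% and 10.1% of those outside it. In replicate 1 these shares were 8.49% and 12.1% inside the run and 9.78% and 10.4% outside, so Apo R1 went the other way. The local background equalled the genome-wide level at 51.3% to 54.2% of the run's peaks and at 37.2% to 43.8% of those outside. Its part in these shares was not tested.

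Window 22 of the run, at 21250001 to 22250000, held 106 regions, and all 4 libraries called 25 of them, against 8.69% of all union regions. The replicate 1 lists had 43 peaks there in aposymbiotic and 49 in symbiotic animals, and the replicate 2 lists had 88 and 75. Replicate 1 and replicate 2 lists thus differed less in length here than over the whole scaffold. This was not particular to window 22, as it held in the run as a whole and in the neighbouring window 23. The lists had 30 and 47 peaks in Apo R1 and Apo R2 in window 23, and 40 and 50 in Sym R1 and Sym R2.

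With and without the symbiont, scaffold 1 held nearly the same share of the open regions. It took up 11.4% of the peaks of Apo R1 (95% Wilson interval 10.9 to 11.8) and 11.1% of Sym R1 (10.7 to 11.4). In replicate 2 the shares were 11.5% (11.3 to 11.7) in both conditions. These intervals cover counting error only. The means were 11.4% ± 0.100 in aposymbiotic and 11.3% ± 0.302 in symbiotic animals (SD, n = 2 each), less apart than the replicates were (log2 ratio -0.016). A two-sided exact permutation test gave p = 1, where 0.333 is the smallest that 2 against 2 allow. Without Sym R1 the log2 ratio was 0.011, on the other side of 0.

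Peak numbers followed the lengths of the lists. Scaffold 1 held 2440 and 9039 peaks in Apo R1 and Apo R2, and 3446 and 10035 in Sym R1 and Sym R2. The groups overlapped, and the means lay closer than the replicates (log2 ratio 0.32, p = 0.667 by a two-sided exact permutation test). Its direction turned without Apo R1 (-0.62), without Sym R2 (-0.45) and with lists of equal length (-0.036).

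Regions of 1 condition made up a share of scaffold 1 near that of all regions. Those that both symbiotic lists and no aposymbiotic list called numbered 400 (2.94%), against 3.14% of all union regions. Those that both aposymbiotic lists and no symbiotic list called numbered 120 (0.883%), against 1.02%. In the central run they made up 2.86% and 0.830%. Regions called in both replicate 2 and neither replicate 1 library numbered 2747 (20.2%), against 20.1% of all regions. A single library called 7149 regions (52.6%), against 51.9% on scaffolds 2 to 13. It was most often Sym R2 with 3711 (27.3%) or Apo R2 with 2848 (21%), against 26.4% and 20.6% there. With a library left out, its condition needs a call in only 1 list, so the counts by condition are not like those above. The symbiotic and aposymbiotic counts were 455 and 2987 without Apo R1, and 4129 and 169 without Sym R1. They were 1439 and 373 without Apo R2, and 853 and 654 without Sym R2. Without Apo R1, 2211 regions were called in all remaining libraries. Shares over all union regions were not taken with a library left out.

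Window by window, the symbiotic and aposymbiotic shares stayed close. In the 35 windows with at least 100 regions, the log2 ratio of list shares, symbiotic over aposymbiotic, ran from -0.47 to 0.27 in replicate 1 and from -0.38 to 0.27 in replicate 2. Of all 40 windows, it was above 0 in both replicate numbers in 9 (22.5%) and below 0 in both in 12 (30.0%). Over all windows of scaffolds 1 to 13 with a ratio these shares were 25.6% and 30%. Ranked by the ratio nearer to 0 of the 2 replicates, the ratios were lowest in windows 22 (-0.34 and -0.38 in replicates 1 and 2), 32 (-0.47 and -0.22) and 15 (-0.10 and -0.10). After window 1 they were highest, by the same measure, in windows 13 (0.17 and 0.11) and 3 (0.22 and 0.072). By the mean of both replicates the order would differ, since window 7 had -0.32 and -0.078 and window 18 had 0.070 and 0.27. In window 13, at 12250001 to 13250000, the lists held 70 and 309 peaks in aposymbiotic and 114 and 370 in symbiotic animals. Windows 32 and 15 start at 31250001 and 14250001.

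**Figure D5:**
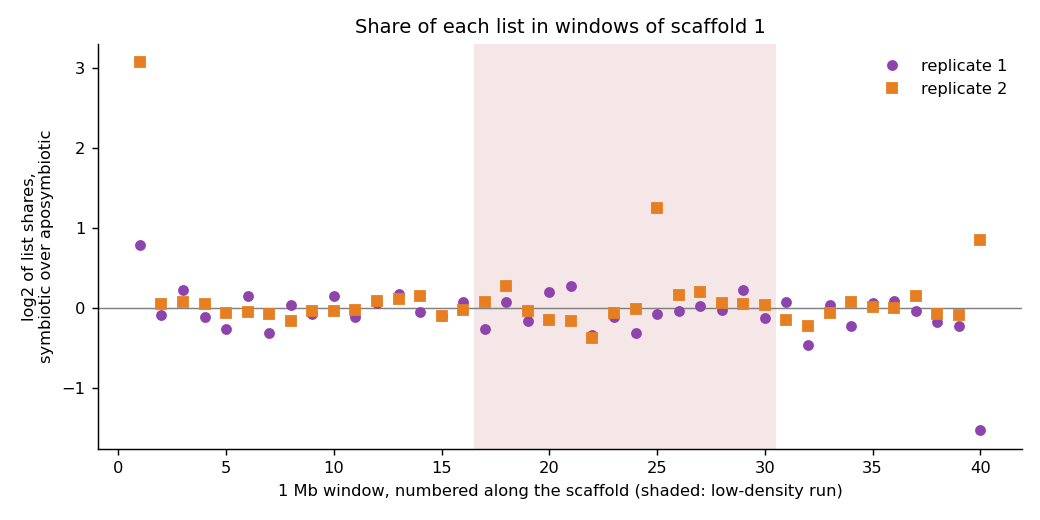
Log2 ratio of the share of each list in 1 Mb windows of scaffold 1, symbiotic over aposymbiotic, for replicate 1 (circles) and replicate 2 (squares), with the low-density run shaded. Most windows lie near 0 and the replicates part from it together in window 1, at 0.79 and 3.07. In window 40, with 3 regions, the points go opposite ways.

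Window 1, a sparse window, held few peaks, and Sym R2 supplied most of them. It had 4 and 3 peaks in Apo R1 and Apo R2, and 10 and 28 in Sym R1 and Sym R2. Both symbiotic libraries were thus above both aposymbiotic ones, although Apo R2 is the second longest list. Of its 31 regions, 26 (83.9%) had no aposymbiotic call, against 32.95% of the regions of the whole interior. It held 5 regions of the symbiotic pattern (16.1% against the 3.14% background), and 20 regions called in Sym R2 only (64.5% against 27.3%). Those 20 had folds of 2.01 to 3.37, with a median of 2.46. With Sym R2 left out, the window held 11 regions instead of 31. Over the genome-wide background, peaks were called from a fold of 1.94 in Sym R2 and of 1.86 in Apo R2. Each limit holds within its own list, since the lists were called separately and their genome-wide backgrounds differ. Whether Apo R2 could have called the 20 regions was not tested.

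Window 25, at 24250001 to 25250000, had 8, 11 and 22 peaks in Apo R1, Sym R1 and Apo R2, and 58 in Sym R2. The surplus here was that of Sym R2, since in replicate 1 the share ratio was -0.073 on the log2 scale. Sym R2 alone called 38 of its 68 regions (55.9%), against 27.3% of the regions of the whole interior. At its start, from 24264693 to 24595987, 15 of 16 regions were called in Sym R2, against 72.1% of the whole interior. Of the 16, 14 (87.5%) were called in no other list. In that stretch the other lists called 0, 1 and 1 regions in Apo R1, Sym R1 and Apo R2. The stretch was chosen after its values were seen, as were both windows. In replicate 2 the log2 share ratio exceeded 1 in 2 of 40 windows of scaffold 1, which are these, and in 2 of 211 windows of scaffolds 2 to 13, which held at most 15 regions. It was below -1 in none of either.

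The strongest regions of scaffold 1 shared by all libraries were spread over both outer parts, and 2 of 10 lay in the central run. They were ranked by the lowest of their 4 within-list percentiles. Their folds ran from 9.53 to 29.7 and their summit pileups from 90 to 385 tags, over widths of 140 to 743 bp. The first, at 30802248 to 30802387 in window 31, was the narrowest. Its local background was at the genome-wide level in all 4 lists, and its tags numbered 247, 231, 385 and 292 in Apo R1, Sym R1, Apo R2 and Sym R2. The second, at 11101299 to 11101734, stood on a raised local background of 15.2, 10.5, 24.2 and 21.0 tags in the same order. Its folds were 14.5, 17.4, 11.98 and 17.4.

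Windows 13, 14 and 16 held 3 more, at 12869718 to 12870371, 13710646 to 13711072 and 15821908 to 15822509. The region in window 13 had folds of 12.4 and 13.8 in Apo R1 and Apo R2 and of 16.6 and 17.6 in Sym R1 and Sym R2. That in window 14 had folds of 11.3 and 9.69, and of 16.9 and 15.5. Folds are not compared between lists, which were called separately. The strong regions of the run, at 28707077 to 28707558 and 28095264 to 28095646, lay near its right edge. Their folds were 10.97 to 14.2 and 11.6 to 14.2 over the 4 lists. The remaining ones were at 33234545 to 33235287, 34468059 to 34468522 and 33053198 to 33053437.

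The widest regions called in all 4 libraries were of moderate strength and had many summits. All 5 lay outside the run, spanned 1510 to 2017 bp and had folds of 2.32 to 4.47. The widest, at 10926299 to 10928315, had 3, 4, 8 and 11 summits in Apo R1, Sym R1, Apo R2 and Sym R2. The others were at 9916224 to 9918006, 30277971 to 30279584, 6803693 to 6805299 and 1535851 to 1537360. The region at 6803693 had 15 summits in Apo R2, the most of any peak on the scaffold.

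The 5 strongest regions that both symbiotic libraries and no aposymbiotic library called had folds of 3.25 to 5.13. Those folds lay below the 9.53 to 29.7 of the 10 strongest shared regions. They overlapped the 2.32 to 4.47 of the 5 widest shared regions. The first symbiotic region, at 20818296 to 20818389 in the central run, had folds of 5.13 and 4.70 in replicates 1 and 2, from 39 and 67 tags. The second, at 10733706 to 10733844, had folds of 4.36 and 3.87, and the third, at 3166393 to 3166519, had folds of 5.00 and 3.32. The others were at 40695551 to 40695946 and 29416499 to 29416589. In 4 of the 5 the local background was at the genome-wide level in both lists.

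The strongest regions called in both aposymbiotic lists only had folds of 2.66 to 4.14. The first, at 7222675 to 7222877, had folds of 4.14 and 2.66 in replicates 1 and 2, from 42 and 46 tags. The second, at 24705257 to 24705402, lay in window 25, where calls of Sym R2 prevailed, and had folds of 3.46 and 2.66. Those at 7840639 to 7841026, 25369560 to 25369668 and 34130206 to 34130459 had folds of 2.77 to 3.62. Of these, 2 of 5 lay in the central run, as did 2 of 5 of the symbiotic regions. Over all regions of each pattern, 20 of 120 aposymbiotic and 69 of 400 symbiotic regions lay there, against 2411 of all 13589 regions. No single region was tested, since a list gives no value where no peak was called.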

How the data were processed

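ATAC-seq libraries of 2 aposymbiotic and 2 symbiotic samples were grouped by the sample titles. Per the submitters' processing notes, the tools were MACS3 3.0.4, Bowtie2 2.5.4, Trim Galore 0.6.10 and deepTools. No settings and no genome assembly are named in the sources used here. A narrowPeak list was deposited for every library. Each deposited line gives a fold enrichment (a ratio of summit pileup to local background), the summit's p-value and q-value as -log10, and a whole-number score of 10 times that q column. Deposited -log10 q values start at 2, a q of 0.01.

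Lines with the same interval were counted as 1 peak with its strongest summit. Summit tags and local background were solved from the fold, (tags + 1)/(background + 1), and the Poisson p-value. The solution returned the listed -log10 p within 0.001 for 100% of peaks on scaffolds 1 to 13. Total reads per library are unknown. Full windows of 1 Mb were tiled from 250001, and a region or peak belonged to the window of its midpoint. Scaffolds 2 to 13 were treated alike. Coordinates count from 1. Conditions were compared by exact permutation of libraries, and scaffolds by exact sign flips over libraries.

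Named windows are the 5 with most and 5 with fewest regions, and the 3 with the highest and 3 with the lowest symbiotic share in both replicates. Named regions are the 10 strongest and 5 widest called in all lists and the 5 strongest per condition. Named gaps are the 5 longest, and named 100 kb windows the 3 richest. Other items were chosen after their values were seen. Members and lists were chosen with earlier results of these data known. Procedures were checked on simulated lists. Python 3.11.15, numpy 2.4.6, pandas 2.3.3, scipy 1.17.1 and matplotlib 3.10.9 were used.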

Additional observations from a re-analysis of the deposited data

How the results depend on the processing

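The lower peak density of scaffold 1 kept its direction under the alternatives that did not select windows by their counts, with log2 ratios from -0.52 with 1 peak per summit line to -0.45 at the stricter q, and from -0.51 to -0.49 when each library was left out. The percentile difference was 3.29 to 4.27 with a library left out. Its mean was -1.01 among peaks at the genome-wide background, where the libraries differed in sign. The log2 ratio of peak numbers reversed to -0.036 with lists of equal length, and ranged from -0.62 to 1.27 when a library was left out. The log2 ratio of list shares ranged from -0.043 to 0.011 when a library was left out. The cause of these changes of sign was not tested. With lists of equal length, the ratio of peak numbers equals that of list shares by construction.

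Among peaks with -log10 q from 5 up, there were 7400 regions, 544 called in all libraries, 178 symbiotic and 53 aposymbiotic, a variance to mean ratio of 53.3, a highest window of 310 and a median width of 198 bp. With lists of equal length these were 5408, 705, 238, 200, 34.5, 213 and 194 bp. Shares over all union regions were not taken at these settings, so the counts describe scaffold 1 only. Regions called in at least 2 libraries numbered 6440, with a ratio of 47.3, windows from 1 to 264 and a width of 252 bp, and merging up to 150 bp apart gave 181 bp. The ratio was 59.7 in windows of 0.5 Mb and 159 in windows of 2 Mb. The sparsest window held 107 regions per Mb at 2 Mb, and 82 when windows were moved by 0.5 Mb. With a library left out, regions called in all others numbered 1210 to 2211 and the width was 152 to 166 bp. Symbiotic regions numbered 455 to 4129 and aposymbiotic regions 169 to 2987. The condition of the missing library then needed a call in only 1 list.

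Pairing libraries by number (replicate block) left the ratios at 0.32 for peaks and -0.016 for shares on the log2 scale, with an exact sign-flip p of 0.5 and 1, where 2 pairs allow no p below 0.5. Same-numbered libraries deviated together over the 251 windows of scaffolds 1 to 13 (correlation 0.686), but the labels give them only a number. The low-density run held 76.1 to 170 regions per Mb under the alternatives tried. Every region named by rule kept its number of calling libraries at the stricter q. With lists of equal length, 4 of the 5 widest kept it. With 200 bp summit windows, 3 of the 5 widest and 4 of the 5 aposymbiotic regions did. Except for the widest, these regions were picked by high fold, so their calls were likely to pass stricter limits. A stricter limit also adds no call in the other condition. The regions of window 40 were not followed. The unknown number of reads and the short replicate 1 lists limit what a missing call can show.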
